A study of Mus musculus with 2 samples.

Results

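The presynaptic vesicle and release genes are 38 listed genes, of 55536 annotated genes in the tables, that encode proteins of synaptic vesicles, of the fusion machinery and of the active zone, the site on the nerve terminal membrane where vesicles fuse. They were taken by gene symbol from a list of known release genes drawn up with earlier results of these data known, though no measured value sets its membership, and all 38 matched an annotated gene. The study sequenced total RNA from the left cerebral cortex of female B6CASTF1/J mice, a first-generation hybrid strain, at 4 days of age. It has 1 group of 2 libraries, replicates 1 and 2, and no treatment, genotype or tissue to set against it, so the values below are levels, comparisons between the genes and the spread between these libraries. No engineered allele or treatment is named in the labels. The mice came from The Jackson Laboratory, and 300 ng of RNA plus ERCC control transcripts entered each library. The labels number the biosamples as different females, while the donor entry is the same for both, so the spread between the libraries may be partly or wholly technical.

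A synaptic vesicle is loaded with transmitter, docked at the active zone by Rab3, RIM and scaffold proteins, and primed by Munc13 proteins. Fusion is driven by the SNARE proteins, which zip the vesicle and the plasma membrane together, and synaptotagmins trigger it when calcium enters. NSF and its SNAP adaptors then take the spent SNARE complexes apart. In the mouse cortex most synapses form after birth.

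Expected counts over annotated genes summed to 29310533 in replicate 1 and 28844674 in replicate 2. The tissue label was checked against marker genes. All 5 cerebral cortex markers were detected, with summed levels of 433 and 451 TPM (a transcript abundance corrected for transcript length and library depth) in replicates 1 and 2, and the 4 hindbrain and other-region markers summed to 0.39 and 0.13 TPM. The 4 neuron markers summed to 3226 and 3148 TPM. Choroid plexus markers differed between the libraries, with sums of 3.21 TPM in replicate 2 and 211 TPM in replicate 1, nearly all of it Ttr. In whole tissue, fewer cells of a type and less RNA per cell cannot be told apart.

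Several members are spliced into alternative coding forms, and the stretches that set these forms apart are shown here because the isoform results below turn on them. They were read from the mm10 (GRCm38) assembly with GENCODE M21 gene models and are given 5′ to 3′ on the coding strand. Snap25 uses 1 of a pair of mutually exclusive exons, exon 5a at chr2:136769743-136769860 or exon 5b at chr2:136770057-136770174, both on the plus strand. Each has 118 bases and they differ at 31 of them, marked by capitals.
Snap25 exon 5a (Snap25-202): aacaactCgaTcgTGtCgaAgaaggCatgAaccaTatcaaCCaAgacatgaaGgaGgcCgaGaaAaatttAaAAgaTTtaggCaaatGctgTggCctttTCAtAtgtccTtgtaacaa
Snap25 exon 5b (Snap25-201): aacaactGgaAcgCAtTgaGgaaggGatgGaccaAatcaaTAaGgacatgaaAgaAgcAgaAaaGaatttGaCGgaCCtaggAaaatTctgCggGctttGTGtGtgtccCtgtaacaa

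Unc13a (chr8:71633439-71633495, minus strand) and Unc13b (chr4:43260993-43261049, plus strand), which encode the priming proteins Munc13-1 and Munc13-2, each have an optional 57-base exon. The exons differ at 17 of 57 bases, marked by capitals.
Unc13a-208: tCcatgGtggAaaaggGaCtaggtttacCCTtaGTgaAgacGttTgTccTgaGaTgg
Unc13b-216: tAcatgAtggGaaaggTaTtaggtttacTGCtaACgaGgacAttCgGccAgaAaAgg

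Erc1 (chr6:119618889-119618912, minus strand) and Erc2 (chr14:28317249-28317272, plus strand) encode the active zone proteins ELKS and CAST. Their brain forms end in a short stretch that binds the PDZ domain of RIM, and these coding ends differ at 2 of 24 bases, marked by capitals.
Erc1-206: gatgaGgaggagggTatatgggca
Erc2-205: gatgaCgaggagggCatatgggca

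Syn1 (chrX:20861572-20861609, minus strand) and Syn2 (chr6:115281088-115281125, plus strand) encode synapsins, which tether vesicles to each other. The 38 bases aligned here code only in the long form of each gene and differ at 10 positions, marked by capitals.
Syn1-201: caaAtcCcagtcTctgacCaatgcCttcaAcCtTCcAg
Syn2-201: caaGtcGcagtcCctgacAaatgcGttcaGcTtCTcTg

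All 38 genes were detected, that is, had at least 1 TPM in both libraries, where 27.6% of all annotated genes and 59.6% of protein-coding genes did. At a stricter level of 10 TPM in both libraries, 35 of 38 were detected, against 38.1% of protein-coding genes. Their median level was 84.2 TPM, against 16.8 TPM for nuclear protein-coding genes at a mean of at least 1 TPM. Of the 38, 15 were above 100 TPM, 20 lay between 10 and 100 TPM, and the remaining 3, Sv2c, Vamp1 and Syt2, were below 10 TPM. Together the 38 genes held 0.776% of nuclear protein-coding TPM in replicate 1 and 0.790% in replicate 2.

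**Figure D1:**
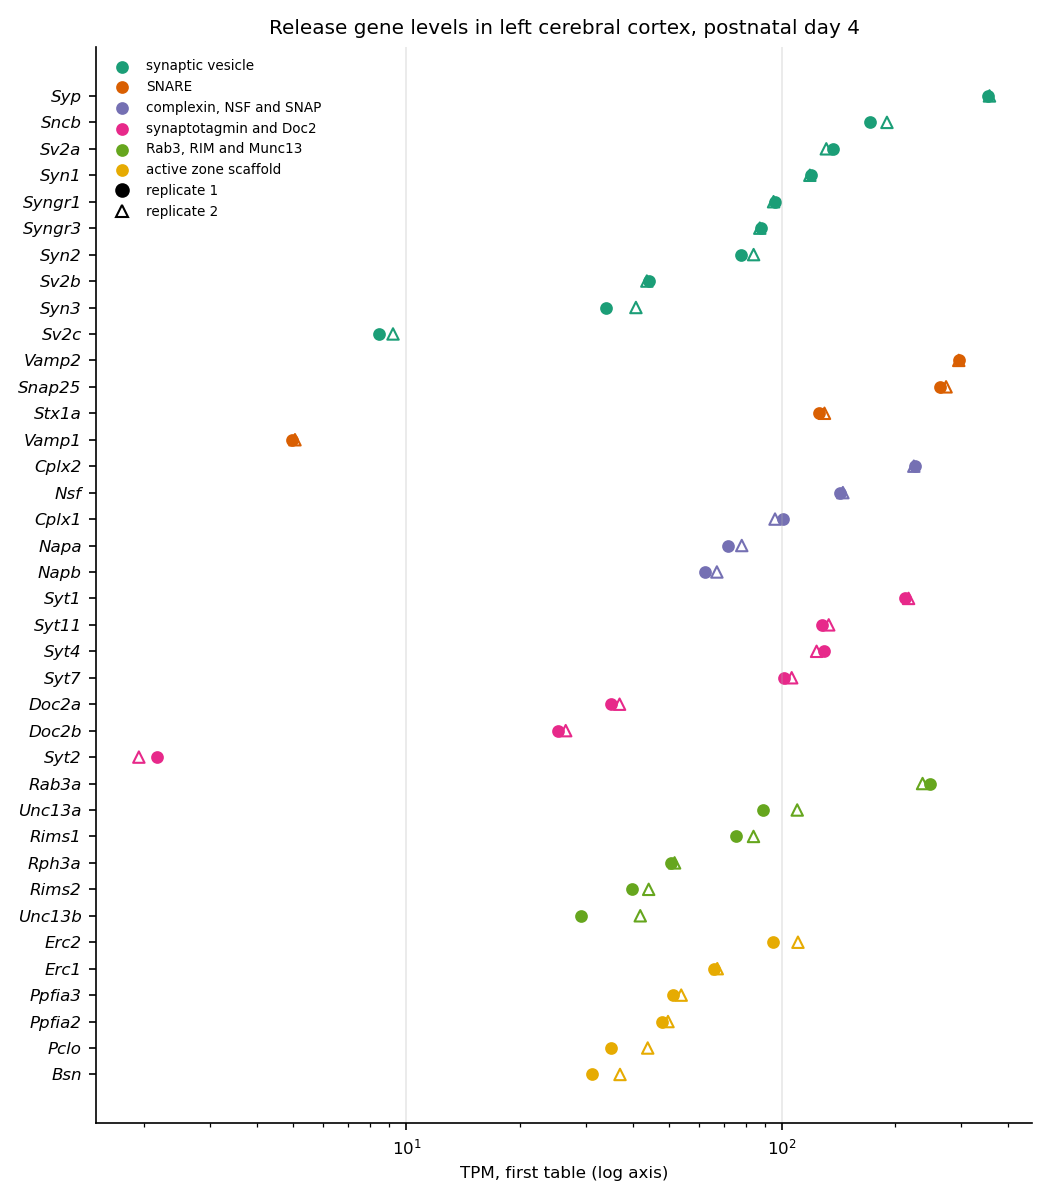
Level of each of the 38 genes in first-table TPM over all transcripts (x axis, log scale), with replicate 1 as filled circles and replicate 2 as open triangles; colours and blocks are the functional groups, sorted by mean within each. Syp is the highest at 355 TPM on this measure, and below Vamp2 in the second table, and Sv2c, Vamp1 and Syt2 lie below 10 TPM, apart from the other members of their groups.

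Among the vesicle genes, Syp, which encodes synaptophysin, the abundant membrane protein of small vesicles (ENSMUSG00000031144.15, chromosome X, 7638471 to 7653256), had 354 TPM in replicate 1 and 356 TPM in replicate 2. By TPM over all transcripts in the first table it was the highest of the 38 members, at position 137 among 22015 nuclear protein-coding genes. In the second table Vamp2, at 543 TPM, was above Syp, at 469 TPM, and over protein-coding transcripts only, in the first table, Vamp2, Snap25 and Rab3a, at 282, 266 and 239 TPM, were above Syp, at 228 TPM. Sncb, the gene of beta-synuclein, a small terminal protein that binds vesicle lipids, came next among the vesicle genes at 172 and 190 TPM. Sv2a, whose product is a vesicle glycoprotein and the binding site of levetiracetam, had 136 and 131 TPM. The other Sv2 genes were lower, Sv2b at 44.3 and 43.6 TPM and Sv2c at 8.43 and 9.21 TPM. Sv2c was thus the one vesicle gene under 10 TPM, and the libraries of the 3 genes did not overlap.

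The synapsin genes formed a graded series. Syn1 had 119 TPM in replicate 1 and 119 TPM in replicate 2 (118.8 ± 0.474, SD, n = 2), Syn2 had 77.7 and 84.0 TPM, and Syn3, which is known for its early expression in developing neurons, had 34.1 and 40.8 TPM. On the log2(TPM + 1) scale, Syn1 exceeded Syn3 by 1.65 ± 0.19 and Syn2 exceeded Syn3 by 1.09 ± 0.10, both past the limit of 1 in size in each library that was used to call a pair of paralogs apart. Syn1 exceeded Syn2 by 0.55 ± 0.08, under that limit. Syngr1 and Syngr3, which encode synaptogyrins, vesicle proteins related to synaptophysin, were close to each other at 95.3 ± 0.587 and 87.7 ± 0.651 TPM, although their ranges did not overlap.

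Of the SNARE genes, Vamp2, the vesicle SNARE synaptobrevin of most central synapses (chromosome 11, 69088490 to 69092384), had 295 TPM in each library. Its paralog Vamp1, which in mice is known mainly from spinal cord, brainstem and the neuromuscular junction, had 4.97 and 5.05 TPM. The log2 ratio of Vamp2 over Vamp1 was 5.62 ± 0.01. The plasma membrane SNAREs were also high: Snap25 (chromosome 2, 136713453 to 136782428) had 264 TPM in replicate 1 and 273 TPM in replicate 2, and Stx1a, the gene of syntaxin-1A, had 125 and 130 TPM. For 3 of the 4 SNARE genes the level was therefore above 100 TPM in both libraries.

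The regulators and recyclers of SNARE complexes lay between 64.7 and 225 TPM. Cplx2 and Cplx1 encode complexins, which clamp and help trigger assembled SNARE complexes. Cplx2 had 225 and 224 TPM and Cplx1 had 100 and 95.7 TPM, a log2 ratio of 1.19 ± 0.04. Nsf, the ATPase that disassembles SNARE complexes, was at 144 ± 1.48 TPM. Its adaptors were both lower and close to each other, with Napb at 62.3 and 67.0 TPM and Napa, the more widely expressed of them, at 71.9 and 78.1 TPM. Over protein-coding transcripts only, the order turned, with Napb at 62.8 TPM and Napa at 36.2 TPM.

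The calcium sensor genes ranged from 2.06 to 214 TPM. Syt1, the gene of the fast calcium sensor of forebrain synapses (chromosome 10, 108497650 to 109010982), had 212 TPM in replicate 1 and 217 TPM in replicate 2. Syt2, the fast sensor of brainstem, cerebellar and neuromuscular synapses and of some inhibitory neurons, had 2.17 and 1.94 TPM. It rested on 151 and 119 expected counts, the fewest of all 38 genes, and the log2 ratio of Syt1 over Syt2 was 6.14 ± 0.10, the largest of the 19 paralog pairs. Syt7, which encodes a slow sensor of asynchronous release, had 101 and 106 TPM.

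Syt11 and Syt4 encode synaptotagmins with a substitution in the first calcium-binding domain, and both are known from postsynaptic and other secretory vesicles as well. They could not be ordered: Syt11 was at 130 ± 3.89 TPM, Syt4 at 126 ± 3.85 TPM, and the log2 ratio was -0.02 in replicate 1 and 0.11 in replicate 2. Doc2b and Doc2a, high-affinity sensors linked to spontaneous and asynchronous release, were lower, at 25.9 ± 0.884 and 36.0 ± 1.35 TPM.

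Among the docking and priming genes, Rab3a, the small GTPase of synaptic vesicles (chromosome 8, 70754679 to 70758677), had 247 TPM in replicate 1 and 236 TPM in replicate 2, and Rph3a, which encodes its binding partner rabphilin, had 50.5 and 51.7 TPM. Rims1 and Rims2 encode the RIM scaffolds that link Rab3, Munc13 and calcium channels. Rims1 had 75.2 and 83.9 TPM and Rims2 had 39.9 and 44.1 TPM. Their log2 ratio of 0.90 ± 0.01 stayed just under the limit of 1. Unc13a had 89.1 and 110 TPM, and Unc13b had 29.1 and 41.9 TPM. Unc13a exceeded Unc13b by 1.47 ± 0.15 on the log2 scale, and Unc13b had the largest spread between the libraries of all 38 genes, with a coefficient of variation of 25.5%.

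The active zone scaffold genes had the lowest median of the 6 functional groups, 50.7 TPM. Pclo and Bsn encode piccolo and bassoon, very large proteins that organise the vesicle cluster. Bsn had 31.3 and 37.0 TPM and Pclo 35.1 and 43.9 TPM. Because their transcripts are long, these levels rested on 9361 to 13786 expected counts. Erc1 had 65.8 and 67.2 TPM, while Erc2, the more neuron-restricted paralog, had 94.8 and 110 TPM, so that Erc1 was lower by 0.61 ± 0.13 on the log2 scale without passing the limit. The liprin-alpha genes Ppfia2 and Ppfia3, whose products carry active zone cargo, were at 48.7 ± 1.34 and 52.6 ± 1.80 TPM.

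Of the 19 pairs, 10 were apart by this measure: Syn1 and Syn2 each over Syn3, Sv2a over Sv2b, Sv2a and Sv2b each over Sv2c, Vamp2 over Vamp1, Syt1 over Syt2, Syt1 over Syt7, Cplx2 over Cplx1 and Unc13a over Unc13b. The pairs were not tested, because with 2 libraries the smallest p that flipping signs exactly allows is 0.5. Syt1 over Syt7 was just inside the limit at 1.04 ± 0.02, and in the second transcript table, in which another program estimated levels from the same reads, it was 1.15 in replicate 1 and 0.99 in replicate 2. Syn2 over Syn3 was 0.73 in that table. The other 8 pairs were apart in both tables. In the order of all 38 levels, 21 of 37 neighbouring genes had ranges that did not overlap. The other 16 overlapped, among them the run of Sv2a, Syt11, Stx1a and Syt4 between 126 and 134 TPM.

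**Figure D2:**
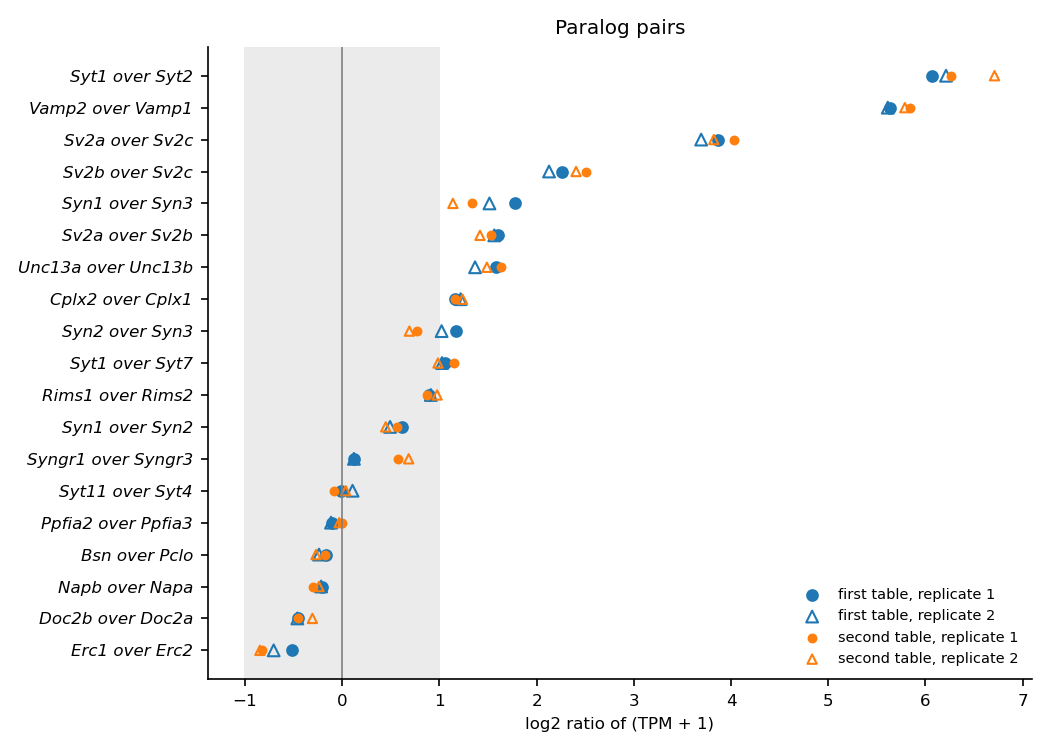
Log2 ratio of (TPM + 1) for the 19 paralog pairs, with the first table in blue and the second table in orange, replicate 1 as filled circles and replicate 2 as open triangles; the grey band spans ratios under 1 in size. Syt1 over Syt2 and Vamp2 over Vamp1 lie beyond 5, and Syn2 over Syn3 falls within the band in the second table alone.

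Second-table levels were set against first-table levels after both were rescaled over nuclear protein-coding genes. None of the 38 genes differed by 2-fold or more in the same direction in both libraries, against 1.25% of 13310 genes (0.563% of them higher in the second table). The largest difference was that of Rph3a, which was higher in the second table by 0.57 and 0.59 on the log2 scale in replicates 1 and 2. The posterior standard deviation of the count, which the authors' program gives for reads shared between genes, was 0 in both libraries for 35 of 38 genes, against 81.8% of nuclear protein-coding genes at a mean of at least 1 TPM. The exceptions were Syn3, Syt1 and Syt11.

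Of the 38 genes, 35 have several annotated transcripts. The transcript of highest TPM was the same in both libraries for 35 of 35 in the first table, against 87.2% of such genes, and for 31 of 35 in the second, against 85.2%. It was the same in both tables for 28 of 35, against 75.2%. Some of the changes between tables were among transcripts with the same coding sequence. In the second table Rab3a-201 held 0.077% of the gene's TPM and Rab3a-202 led with 53.8%, while in the first Rab3a-201 held 76.1% ± 1.21. Rab3a has 4 transcripts that share 1 coding sequence of 660 bases, and these summed to 99.0% in the second table and 98.8% in the first. Pooled in this way, a grouping chosen after the values were seen, 33 of 35 genes had the same leading coding sequence in both tables, against 81.9% of genes, with Syn1 and Unc13b as the exceptions, and 35 of 35 had the same one in both libraries, against 89.8%.

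Snap25 was divided between both forms of exon 5. The form with exon 5b, known as the form of the mature brain, held 56.8% of Snap25 TPM in replicate 1 and 58.2% in replicate 2. The form with exon 5a, known as the form of embryonic and early postnatal brain, held 42.3% and 40.6%. The exon 5b form was thus the more abundant in both libraries, and the second table gave 56.8% ± 0.165 for exon 5b and 42.3% ± 0.325 for exon 5a. Both models have 618 coding bases, but they also differ outside the exon: Snap25-201 has 1102 noncoding bases that Snap25-202 lacks. How far those bases, rather than exon 5, set the estimated shares was not tested.

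The tables divided Syn1 differently. Syn1-201, with 2118 coding bases the longer form synapsin Ia, held 33.4% and 32.3% of Syn1 TPM by the second program, but 50.4% and 55.6% by the first. The remainder was Syn1-202, with 2010 coding bases the form Ib, which therefore led in the second table at 67.2%. For Syn2 the tables were closer to each other. The long form Syn2-201 held 12.9% ± 0.330 in the second table and 13.2% ± 0.472 in the first, and the shorter coding sequence of 1437 bases held 56.3% and 67.3%.

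The optional exon of Unc13a was in a transcript that held 37.4% and 32.4% of the gene's TPM in replicates 1 and 2. The matching exon of Unc13b was in transcripts with 16.9% and 15.0%. The share was higher for Unc13a in both libraries and in both tables. These shares are of all TPM of the gene, retained-intron transcripts included, and those transcripts took a larger part of Unc13b. Unc13a-201, which lacks the exon, also has 4658 noncoding bases that Unc13a-208 lacks. The Unc13b share came from Unc13b-216 alone. That model has 2343 coding bases, the exon included, that are not coding in Unc13b-201, and lacks 1167 coding bases of Unc13b-201. These shares are of whole transcripts, and how far the other bases, rather than the exon, set them was not tested.

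The RIM-binding end was coded by transcripts with 41.4% ± 0.131 of Erc1 TPM and 64.4% ± 0.598 of Erc2 TPM. The second table gave 43.8% ± 0.655 for Erc1 and 68.8% ± 3.88 for Erc2. In Erc1 most of this came from Erc1-206, at 39.1% ± 0.962, which GENCODE annotates as a target of nonsense-mediated decay, while in Erc2 it came mainly from the protein-coding Erc2-205 at 56.4% ± 3.67. The longer Erc1-201 and Erc1-203, with 3360 coding bases each and without this end, held 34.1% and 21.4%. Erc1-201 also has 3790 noncoding bases that Erc1-206 lacks, and their part in these shares was not tested.

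**Figure D3:**
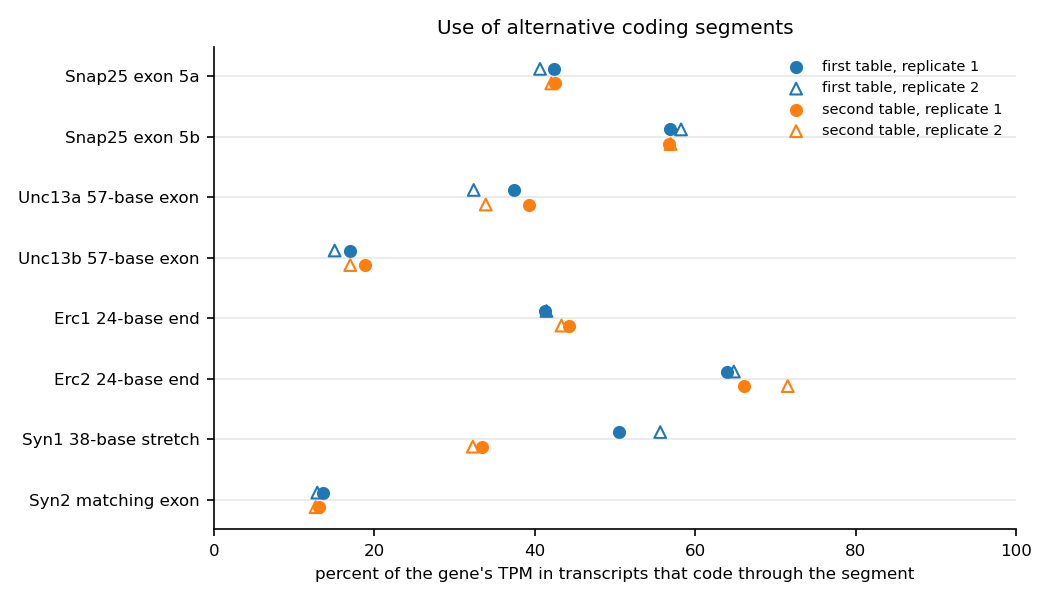
Percent of each gene's TPM in transcripts that code through the alternative segments (x axis), with the first table in blue and the second in orange, replicate 1 as filled circles and replicate 2 as open triangles. Snap25 exon 5b lies above exon 5a in both tables, and the Syn1 stretch lies above 50% in the first table and below 34% in the second.

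The shares that follow are from the first table unless stated. Other members with several coding forms included Syt7, in which Syt7-202, with 1833 coding bases, held 44.0% ± 0.488 and Syt7-201, with 1209 coding bases, held 19.7% ± 3.26. Pclo-202, with 14589 coding bases, held 53.6% ± 0.0354 and Pclo-201, with 15204, held 34.2% ± 0.530. Vamp1 was divided between Vamp1-203 at 44.5% ± 5.42 and Vamp1-201 at 38.4% ± 0.530, each on 94.8 to 136 expected counts a library. In the second table these forms held 39.7% ± 9.78 and 24.6% ± 5.30, and the noncoding Vamp1-205 held 22.7%. Rims1 and Rims2 were spread over many models: their leading transcripts Rims1-202 and Rims2-201 held 32.1% ± 0.255 and 27.1% ± 1.07.

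Genes with 1 strongly leading form included Cplx1, Napb and Syt1. Cplx1-201 held 100% in both libraries and tables. In the first table Napb-201 held 97.1% ± 0.523 and Syt1-201 89.1% ± 2.21. Syt1-201 fell to 74.0% ± 1.38 in the second table, where the retained-intron model Syt1-205 held 15.8%. Vamp2-201, with 348 coding bases, held 74.3% by the second program and 94.1% ± 1.06 by the first, and for Syngr1-201 these shares were 59.1% and 90.3%. In the second table the rest of Syngr1 was mainly Syngr1-204, a model of 479 bases with an incomplete coding sequence, at 31.1%. Rph3a behaved likewise: Rph3a-202, a partial model of 750 bases, held 34.2% in the second table and 0.955% in the first, and the full coding sequence of 2043 bases held 65.8% and 99.0%.

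Total RNA also holds unspliced and partly spliced RNA. The annotation lists retained-intron and other noncoding transcript classes, but some of these models are spliced, such as Erc1-206 with 19 exons and Syp-206 with 4. Their shares are therefore not a measure of unspliced RNA. The median share of TPM in protein-coding transcripts was 96.0% in replicate 1 and 94.7% in replicate 2 over the 38 genes, against 89.6% and 87.5% over all nuclear protein-coding genes at 1 TPM or more. None of the 38 had under 50% in both libraries, where 8.98% of those genes did. Napa was nearest to that limit, with 51.4% in replicate 1 and 45.4% in replicate 2, and retained-intron transcripts held 47.7% and 52.7% of it. Unc13b had 60.4% and 54.9%, and Erc1 57.1% and 56.2%. Napa, Unc13b and Erc1 had the smallest coding shares of the 38 in the first table. In Erc1, however, retained-intron transcripts held only 1.37% and 2.35%. Most of its other noncoding share was Erc1-206, annotated as a target of nonsense-mediated decay, at 39.8% and 38.5%. Over the 35 genes with several transcripts, 20 had a lower coding share in replicate 2, against 54.9% of such genes.

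Syp was the gene whose coding share differed most between the tables. A noncoding transcript of 433 bases, Syp-206, held 0% of Syp TPM by the second program and 32.3% ± 1.06 by the first. The protein-coding share was 99.6% and 99.3% in the second table, against 64.8% and 63.7% in the first. The reverse was seen for Sncb, where the retained-intron model Sncb-204 held 41.0% in the second table and 18.5% in the first. Short models such as these weigh more in TPM than in counts.

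**Figure D4:**
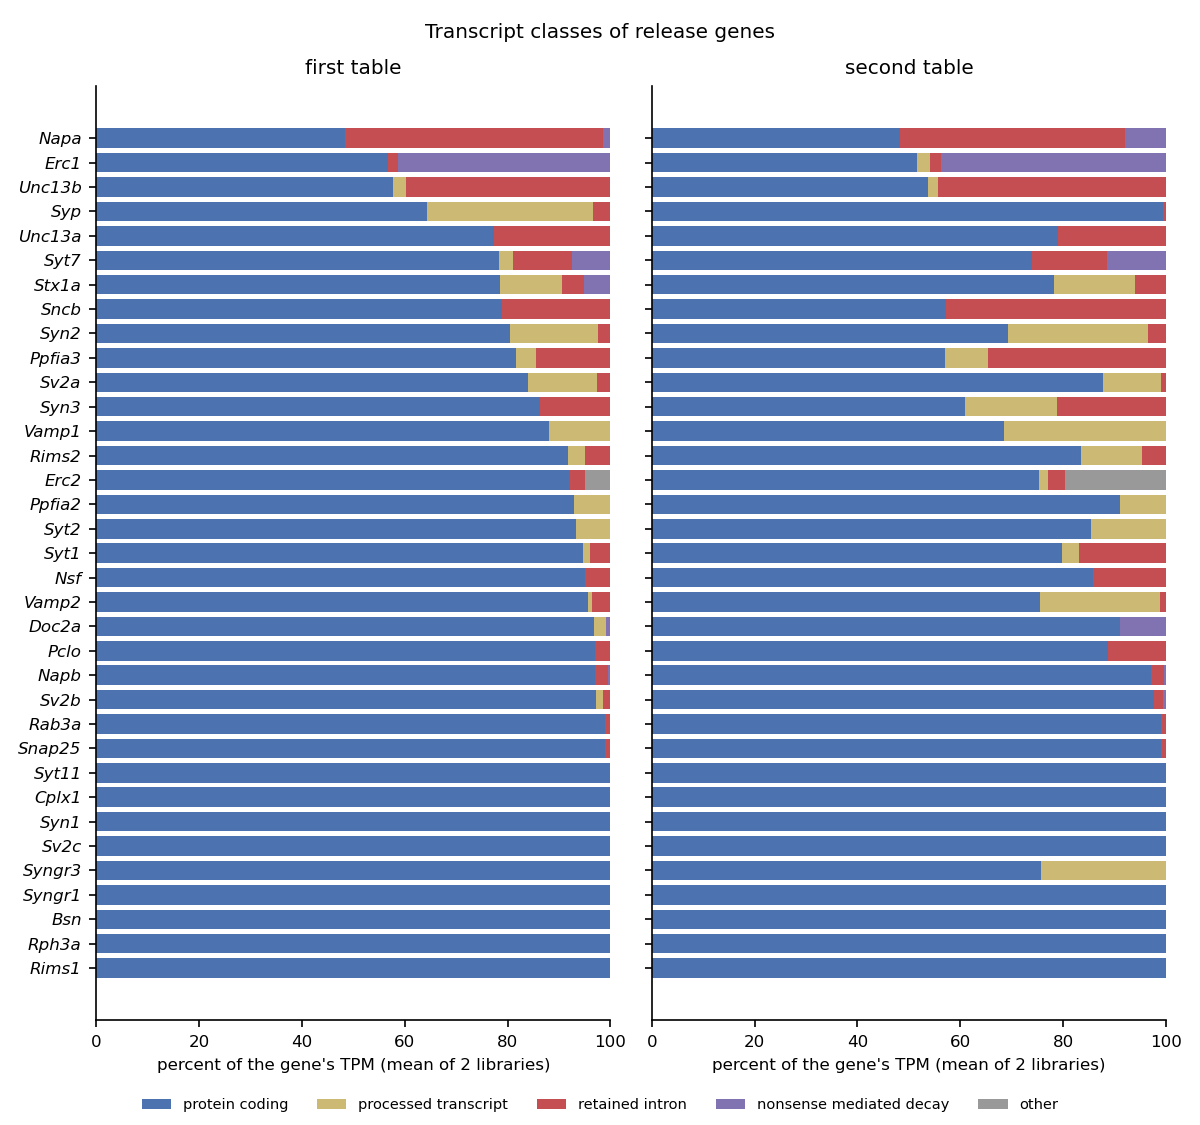
Percent of each gene's TPM by the annotated class of its transcripts (stacked bars, mean of the 2 libraries) for the 35 genes with several transcripts, in the first table on the left and the second on the right, sorted by the first-table coding share. Napa, Erc1 and Unc13b have the smallest coding shares in the first table, and the processed transcript of Syp seen there is missing from the second table.

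The libraries were compared gene by gene with an exact two-sided binomial test on expected counts, scaled by TMM and adjusted by Benjamini-Hochberg over 18492 genes, which covers counting error and compares these libraries only. None of the 38 genes passed an adjusted p of 0.05 together with a 2-fold difference, against 2.88% of all genes (2.33% higher in replicate 2). At an unadjusted p under 0.05, 23 of 38 differed at any size, against 34.6% of all genes, and at an adjusted p under 0.05, 20 of 38 did, against 25.1% of all genes. Of these, 5 were higher in replicate 2, against 11.9% of all genes, and 15 were lower, against 13.3%. The test picks out smaller differences at higher counts, and all genes were not matched to the 38 by count. These shares therefore do not compare like with like. The differences were small: the median size over the 38 genes was 0.08 on the log2 scale, against 0.11 over nuclear protein-coding genes.

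The 5 genes higher in replicate 2 were Unc13b, Syn3, Pclo, Bsn and Unc13a. Unc13b had 3649 expected counts in replicate 2 and 2782 in replicate 1, 1.29-fold higher after scaling (exact binomial test, adjusted p = 2.53e-22). Pclo had 13786 in replicate 2 and 11490 in replicate 1, 1.18-fold higher (exact binomial test, adjusted p = 1.24e-37), and Syn3 had 1975 and 1630, 1.19-fold higher (exact binomial test, adjusted p = 2.42e-06). Unc13b, Pclo and Syn3 span 206, 349 and 444 kb, while Bsn and Unc13a span 94.4 and 47.3 kb. The lowest ratio was that of Syt2, with 119 counts in replicate 2 and 151 in replicate 1, but its log2 ratio of -0.36 did not pass (exact binomial test, adjusted p = 0.119). Of the 15 genes lower in replicate 2, Cplx1, Syt4 and Rab3a had the lowest log2 ratios, at -0.16, -0.15 and -0.15.

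Sorted by annotated span, the 13 shortest members, of 3.90 to 27.9 kb, had a median log2 ratio of -0.10, and none was higher in replicate 2, against a median of -0.06 and 35.7% of 7000 nuclear protein-coding genes of up to that span. The 13 longest, of 132 to 856 kb, had a median of 0.01, and 8 were higher in replicate 2, close to the median of 0.01 and the 52.1% of 1528 genes at least as long. Over all 38 genes, 11 were higher in replicate 2, against 42.6% of nuclear protein-coding genes at a mean of at least 1 TPM. The Spearman correlation of span with the ratio was 0.59 across the 38 genes and 0.21 across 13320 nuclear protein-coding genes, a description only, since the genes share both libraries. These counts depended on the scaling, which moved the number higher in replicate 2 to 13 with DESeq2 size factors and 16 with library totals, and it was 7 in the second table. The comparison by span was chosen after the values were seen.

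**Figure D5:**
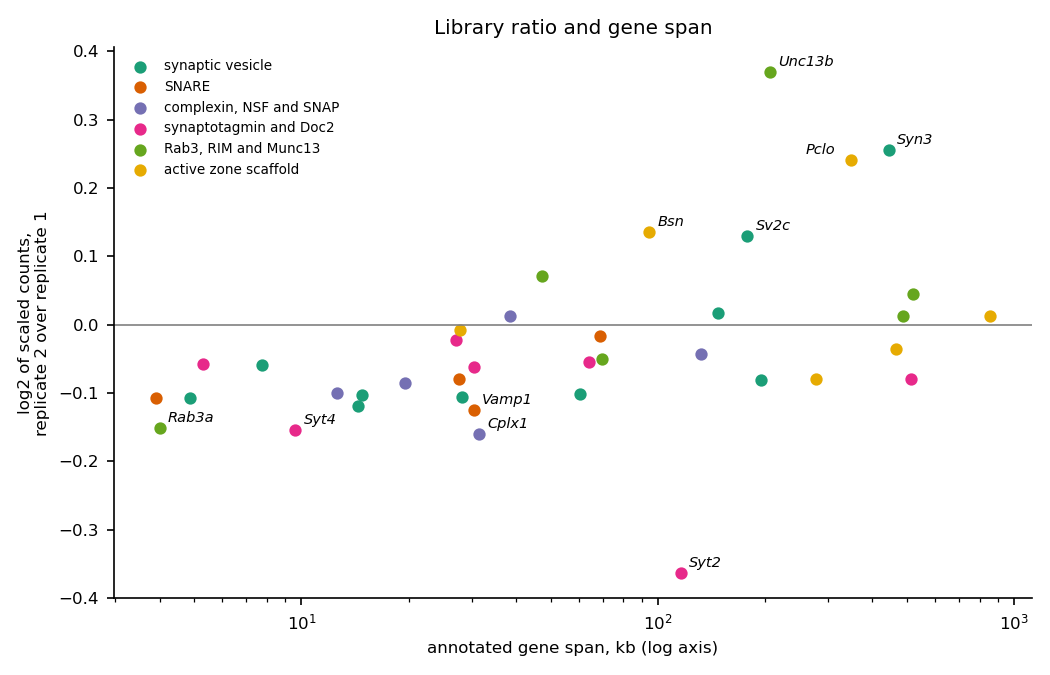
Log2 ratio of scaled expected counts, replicate 2 over replicate 1 (y axis), against the annotated gene span in kb (x axis, log scale) for the 38 genes, coloured by functional group. Each of the 13 genes with the shortest span lies below 0, and the highest points are Unc13b, Syn3 and Pclo, which span 206 to 444 kb.

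Retained-intron shares also differed between the libraries. Of the 22 members with such RNA in a library, 20 had a larger retained-intron share in replicate 2, against 71.2% of 7581 genes, and pooled over the 38 genes the share was 6.17% in replicate 2 and 4.03% in replicate 1, against 9.94% and 8.52% for all nuclear protein-coding genes. Sncb had the widest gap in the first table, with 25.8% in replicate 2 and 16.3% in replicate 1, but 44.2% and 41.2% in the second. There Syt7 had 19.0% in replicate 2 and 9.95% in replicate 1. Across the 38 genes the change in this share had a Spearman correlation of 0.24 with the count ratio. The choroid plexus markers, which also differed between the libraries, are given above, and their part in these ratios was not tested.

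TPM and counts did not always point the same way between the libraries. Sncb had 190 TPM in replicate 2 and 172 TPM in replicate 1, but 3616 expected counts in replicate 2 and 3711 in replicate 1. Likewise Stx1a had 130 TPM in replicate 2 and 125 TPM in replicate 1, with 4393 and 4572 expected counts. These counts are not scaled between the libraries. The leading coding transcripts were lower in replicate 2. Sncb-201 had 142.9 TPM in replicate 1 and 139.5 TPM in replicate 2, and Stx1a-201 had 99.9 and 97.4 TPM. Retained-intron models were higher there, with Sncb-204 at 23.9 and 43.9 TPM and Stx1a-205 at 3.31 and 7.70 TPM. The cause of the disagreement was not tested.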

How the data were processed

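Total RNA-seq of 2 left cerebral cortex libraries was analysed from the deposited gene and transcript tables. Assembly mm10 and GENCODE M21 come from the descriptions that the authors deposited with these files; aligner and program versions were not given in the sources used here. The first table holds expected counts, in which the authors' program split shared reads, TPM scaled by effective length with spike-ins included, and the percent of the gene's TPM in each transcript, per the file headers, which are those of RSEM. The second, deposited with the column names of kallisto, holds estimated counts and TPM per transcript, summed here by gene. Of 81881 entries of the gene table, 26345 without a gene identifier, spike-ins included, held 0.330% and 0.346% of counts and stayed out. CAST/EiJ alleles were not modelled.

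Means are given with SD (n = 2). Expected counts were rounded to whole numbers, genes summing to 20 or more over both libraries were tested, and 0.5 was added to each count before log2 ratios were taken. TMM factors came from edgeR 4.0.16 and size factors from DESeq2 1.42.0 (R 4.3.3); Python 3.11.15 and scipy 1.17.1 were used otherwise. The binomial test was run on simulated counts that held counting error only, which is what it assumes. That run checks the calculation and says nothing about the spread between these libraries. With no contrast between groups, no model over replicates was fitted. Reads carry no molecular identifiers that the sources name, so the test covers counting error only.

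Named were every member, every pair, leading transcripts and coding transcripts at 10% or more, and of the other release genes the 6 highest and 4 lowest, of which some are not reported here. The members and lists were chosen with earlier results of these data known. The aligned coding stretches, the pooling by coding sequence and the span comparison were chosen after the values were seen.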

Additional observations from a re-analysis of the deposited data

How the results depend on the processing

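All 38 genes were detected at 0.5 or 1 TPM in each table and library, and no alternative called any of the 38 different between the libraries. The median level of 84.2 TPM became 128 TPM in the second table, 166 TPM when rescaled over nuclear protein-coding genes and 78.0 TPM over protein-coding transcripts only, the last chosen after seeing the data. It was 82.9 to 85.6 TPM in single libraries. The share of nuclear protein-coding TPM, 0.783%, became 0.754% in the second table and 1.01% on expected counts, and was 0.776% to 0.790% in single libraries. With TPM as deposited, 3 genes differed 2-fold between the tables, against 0 after rescaling. Genes under 50% in coding transcripts numbered 1 in the second table, and 0 to 1 in single libraries, Napa in each case. Pairs apart numbered 8 in the second table and 10 in each other setting run on pairs. Pairs were not called over protein-coding transcripts only. There Erc1 and Erc2 had mean levels of 37.7 and 94.6 TPM, and Syn2 and Syn3 had 65.1 and 32.2 TPM. That setting leaves out the other transcript classes, such as Erc1-206 at 39.1% of Erc1 TPM. Nuclear protein-coding genes held 50.7% and 51.5% of annotated-gene TPM in the first table, in replicates 1 and 2. In the second table they held 82.4% and 82.0%. Rescaling divides by the part these genes hold, so it raises every level. The cause of the other changes was not tested. No paired analysis was possible because the series has 1 group. Depth limits Syt2 and Vamp1 the most, with 119 to 274 counts a library.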

Other observations

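Other genes of the release pathway were taken from a list of 61 matched genes, chosen for their known role with earlier results of these data known. At 1 TPM or more in both libraries, 55 of 61 were detected, against 59.6% of protein-coding genes, and their median was 16.8 TPM. None was called between the libraries, against 2.88% of all genes. Among the high ones, Snap91, a clathrin adaptor of vesicle recycling, was at 199.7 ± 7.64 TPM. Dnajc5, the vesicle chaperone CSP-alpha, was at 155 ± 5.69 TPM, the SNAP-25 relative Snap47 at 151 ± 1.56 TPM and the vesicle protein gene Scamp5 at 141 ± 2.28 TPM. In the second table the means of Snap91, Dnajc5, Snap47 and Scamp5 were 230, 250, 400 and 244 TPM. The lowest in the first table were Unc13d, which encodes a Munc13 protein of immune cells, at 0.335 TPM (3.14 and 3.41 TPM in the second table, where 56 of 61 were detected), Syngr4 at 0.240 TPM, Cplx4, a complexin of retinal ribbon synapses, at 0.0600 TPM, and Syt8, which was listed at 0 in both libraries in the first table.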
